A study of Mus musculus with 26 samples.

Results

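The adipogenic transcription factors examined here were 10 genes, chosen by name: Pparg, Rxra, Cebpa, Cebpb, Cebpd, Klf4, Klf15, Ebf1, Ebf2 and Zfp423. They had 15 probes of the 40168 in the deposited array table, which held 26154 gene names in all, and all 15 were well above background on all 26 arrays. Inguinal subcutaneous white adipose tissue was measured in male C57BL6/J mice, 1 array per mouse, after a 24 h fast and 18 h of refeeding with food and water containing 20% glucose. Total ChREBP-KO mice (n = 7) were Mlxipl-null and so lacked both isoforms of ChREBP, a glucose-responsive transcription factor, and were set against WT mice of the same line (n = 7). In ChREBPβ KO mice (n = 5) exon 1b of Mlxipl, which the shorter isoform needs, had been removed by CRISPR/Cas9 in the whole body, and they were set against 7 WT mice of the ChREBPβ line. The ages of these mice were not given in the sources used here, nor was which of the derived ChREBPβ lines supplied them. Whole tissue was sampled in both lines, so fewer cells of a type and less RNA per cell cannot be told apart in any value below.

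Adipogenesis is driven by a cascade of transcription factors. C/EBPβ and C/EBPδ, with KLF4, act early after the adipogenic stimulus and induce PPARγ and C/EBPα, which then maintain each other and the genes of the mature adipocyte. PPARγ binds DNA together with its partner RXRα. ZFP423, EBF1 and EBF2 act in committed preadipocytes and in the choice between white and thermogenic fat. KLF15 promotes PPARγ expression and, in mature tissue, controls genes of the fasting response.

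Upstream sequence was examined for the members that differed most between total ChREBP-KO and WT fat. RefSeq promoters (GRCm38.p6) matched 8 of the 10 members by symbol, with 13 entries. The letters searched on both strands of the 250 bases before each start were CACGTG, an E-box, TTGCNNAA for C/EBP factors and CCACCC for KLF factors. Whole carbohydrate response elements were not searched. The EBF palindrome and the direct repeat DR1, which a PPARγ and RXRα dimer binds, were searched too. CACGTG was in 6.02% of all 32851 promoter entries, TTGCNNAA in 9.56%, CCACCC in 28.1%, the EBF palindrome in 0.779% and DR1 in 0.0335%. The EBF palindrome and DR1 were in 0 of the 13 member entries. The sequences of Klf15, Zfp423 and Cebpa are shown because these genes had the largest differences, and that of Klf4 because it was the other member with an E-box. Capitals mark the matches, which do not overlap each other. Each sequence runs 5′ to 3′ in the direction of the gene.
Klf15, chr6:90462326-90462575, plus strand: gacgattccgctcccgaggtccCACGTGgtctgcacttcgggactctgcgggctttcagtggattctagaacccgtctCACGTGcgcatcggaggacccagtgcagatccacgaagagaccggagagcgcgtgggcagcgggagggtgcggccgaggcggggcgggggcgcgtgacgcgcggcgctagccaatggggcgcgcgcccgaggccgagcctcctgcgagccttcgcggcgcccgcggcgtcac
Zfp423, chr8:87959596-87959845, minus strand: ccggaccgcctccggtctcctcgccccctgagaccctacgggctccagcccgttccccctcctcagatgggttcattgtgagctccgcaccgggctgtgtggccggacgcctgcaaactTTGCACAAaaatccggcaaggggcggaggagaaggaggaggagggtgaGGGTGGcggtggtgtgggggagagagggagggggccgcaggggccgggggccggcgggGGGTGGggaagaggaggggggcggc
Cebpa, chr7:35119043-35119292, plus strand: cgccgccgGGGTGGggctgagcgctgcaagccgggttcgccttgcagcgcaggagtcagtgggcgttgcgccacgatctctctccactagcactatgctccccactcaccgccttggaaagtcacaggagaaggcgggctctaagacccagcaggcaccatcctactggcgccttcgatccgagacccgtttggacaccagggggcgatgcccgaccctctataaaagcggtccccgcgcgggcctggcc
Klf4, chr4:55532476-55532725, minus strand: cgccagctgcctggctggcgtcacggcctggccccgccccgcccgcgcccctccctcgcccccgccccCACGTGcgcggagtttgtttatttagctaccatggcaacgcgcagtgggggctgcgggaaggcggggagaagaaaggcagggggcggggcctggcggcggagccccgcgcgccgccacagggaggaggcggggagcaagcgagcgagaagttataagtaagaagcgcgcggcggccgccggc
The Klf15 sequence held 2 copies of CACGTG, which begin 228 and 172 bases before the start. Klf4 held 1 copy, 182 bases before the start. TTGCNNAA was found upstream of Zfp423 and Pparg. CCACCC was found in 7 of the 13 member entries, those of Cebpa, Cebpb, Pparg, Rxra and Zfp423. The Zfp423 entry shown is 1 of 2 for that gene. These matches describe letters in the window and were not tested for binding.

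Adipogenic factors differed between total ChREBP-KO and WT fat in both directions. Klf15, Cebpa, Rxra and Pparg were higher in total ChREBP-KO, as were Zfp423 and Ebf2. Of the early factors, Cebpb and Cebpd were lower and Klf4 did not pass. Ebf1 did not pass at its brightest probe. By limma, with an adjusted p under 0.05 as the threshold, 8 of the 10 members passed, with 6 higher and 2 lower, beside 45.9% of all 26154 genes, of which 25.7% were higher and 20.2% lower. The median log2 difference of the members was 0.42, and that of all genes was 0.05. In 4 members the KO and WT arrays did not overlap, beside 14.6% of all genes. In ChREBPβ KO fat 0 of the 10 members passed in limma, beside 0.0497% of all genes. An unadjusted p under 0.05 was found in 2 members, beside 2016 of all 26154 genes. Mlxipl itself, which checks the labels, had a log2 difference of -2.28 in total ChREBP-KO and -1.52 in ChREBPβ KO at the brightest of its 3 probes, with no overlap between KO and WT arrays in either line. One of its other probes, A_55_P2045158, differed in neither line beyond the threshold (-0.13 and 0.04).

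**Figure D1:**
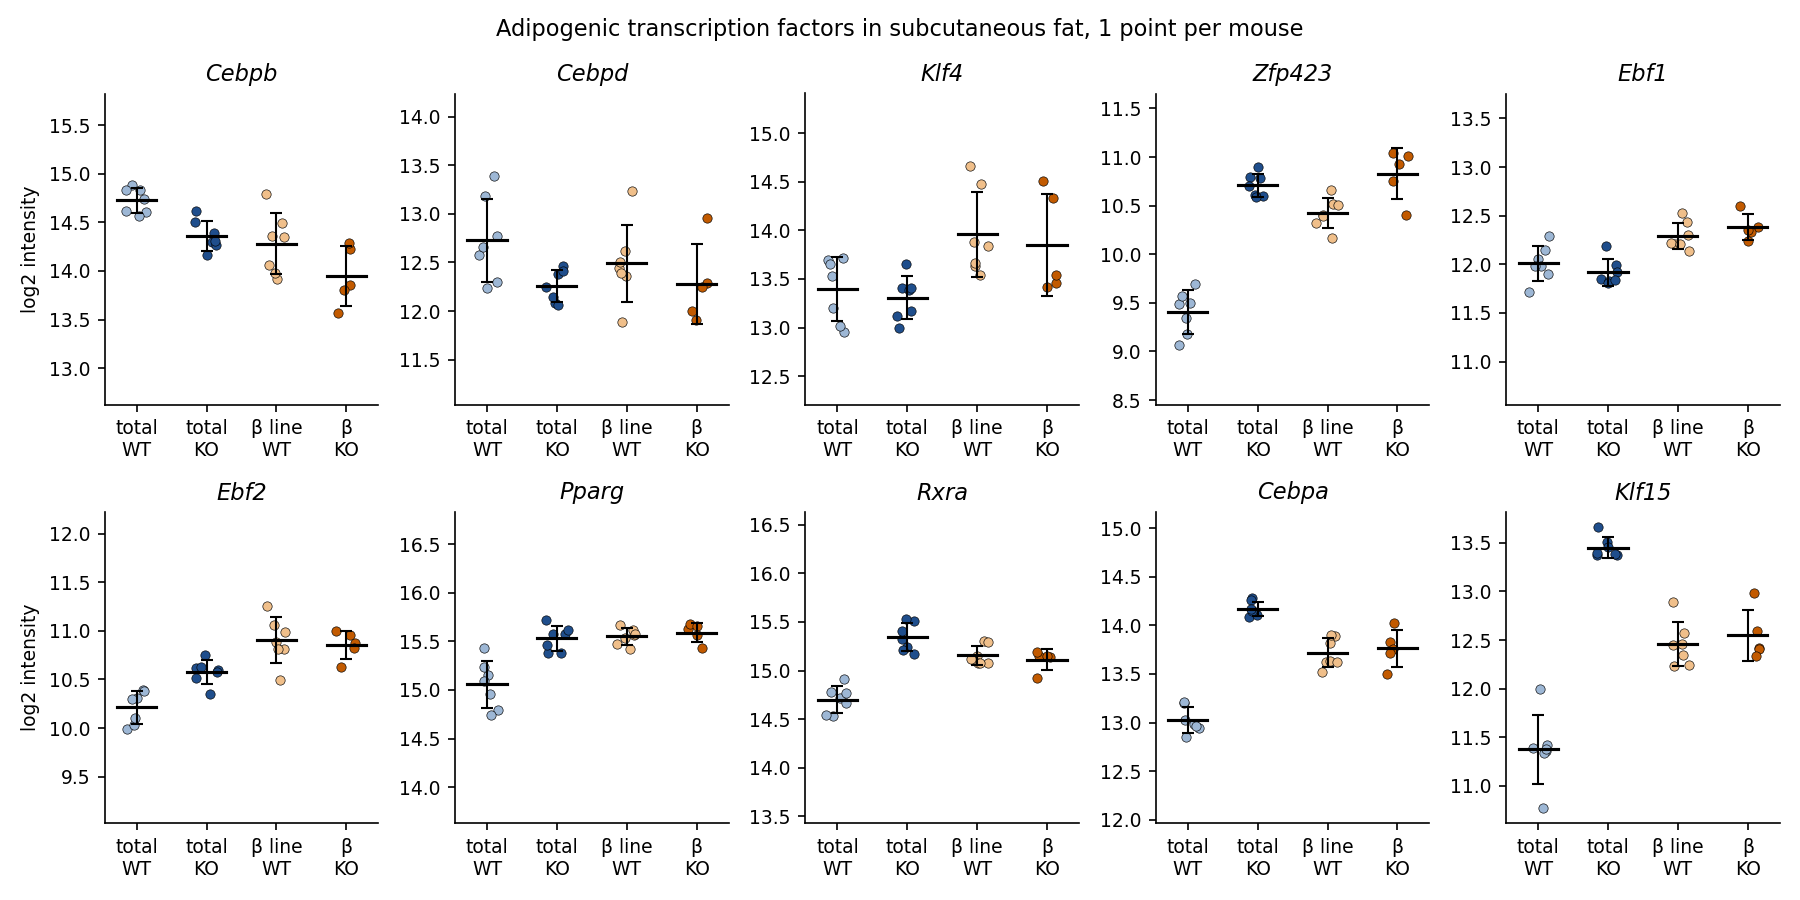
log2 intensity of the brightest probe of each member (y axis, deposited values, spanning the same number of log2 units in every panel) in the 4 groups (x axis). Points are mice, long bars are means and whiskers are SD. Klf15 lies between 13.37 and 13.67 in total ChREBP-KO, above all 7 WT mice of that line, while both groups of the ChREBPβ line lie between these and overlap each other.

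Levels of markers of other tissues in the dissected fat stand here for use beside the results. The lymphocyte score, the mean log2 intensity of 15 lymphocyte markers on an array, ranged from 10.86 to 12.54 in WT mice of the total line and from 7.93 to 11.20 in total ChREBP-KO. It ranged from 7.31 to 8.15 in WT mice of the ChREBPβ line and from 7.26 to 8.91 in ChREBPβ KO. All 15 markers were called lower in total ChREBP-KO than in WT, beside 20.2% of all genes, with a median log2 difference of -2.45. All 15 were also called lower in WT of the ChREBPβ line than in WT of the total line, beside 19.7% of all genes. The score of 12 skeletal muscle markers ranged from 6.16 to 12.12 in WT and from 6.38 to 13.43 in total ChREBP-KO. Of the 12, 3 passed, all higher in the KO, which is 25% and near the 25.7% of all genes that were higher. The tissue label was borne out by adipocyte markers, whose score of 8 genes lay between 15.37 and 16.27 over all arrays. This score averaged 15.63 in WT of the total line, 16.19 in total ChREBP-KO, 16.03 in WT of the ChREBPβ line and 16.11 in ChREBPβ KO. In total ChREBP-KO 7 of its 8 genes passed, all higher, beside 25.7% of all genes higher.

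Klf15, a Krüppel-like factor of mature adipocytes, had the largest difference among the members. Its log2 intensity was 10.77 to 11.99 with a median of 11.38 in WT mice of the total line, and 13.37 to 13.67 with a median of 13.40 in total ChREBP-KO. Every KO mouse was above every WT mouse. The log2 difference was 2.07 (SE 0.13, limma adjusted p = 4.94e-12), a 4.21-fold higher level, and 0.302% of all genes had a larger rise. Within the 4 wash batches the difference was between 1.82 and 2.51. In the ChREBPβ line the WT mice were at 12.24 to 12.89 with a median of 12.45, and the 5 KO mice were at 12.33, 12.41, 12.42, 12.59 and 12.98. These groups overlapped almost wholly, and the log2 difference was 0.09 (95% interval -0.20 to 0.38, adjusted p = 0.961).

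Cebpa, which encodes the factor that sustains Pparg in mature adipocytes, was also higher in total ChREBP-KO. WT mice were at 12.85 to 13.21 with a median of 12.98, and total ChREBP-KO mice at 14.09 to 14.28 with a median of 14.15, again with no overlap. The log2 difference was 1.14 (SE 0.08, adjusted p = 1.44e-11), a 2.21-fold higher level, and it was between 0.90 and 1.28 within wash batches. The WT mice of the ChREBPβ line were at 13.52 to 13.90 with a median of 13.64. Their ChREBPβ KO littermates were at 13.50, 13.71, 13.76, 13.83 and 14.02. The difference in that line was 0.05 (95% interval -0.12 to 0.22, adjusted p = 0.967).

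Pparg, the central regulator of adipocyte differentiation and lipid storage, differed less. Its main probe was at 14.74 to 15.43 with a median of 15.09 in WT of the total line and at 15.38 to 15.72 with a median of 15.58 in total ChREBP-KO. The highest WT mouse lay within the range of the KO mice. The gap of 0.47 on the log2 scale (SE 0.08, adjusted p = 6.86e-05), a 1.39-fold higher level, passed, and within wash batches it was between 0.05 and 0.82. The second Pparg probe, which the array annotation ties to another transcript, gave 0.31 and did not pass (adjusted p = 0.0636). In the ChREBPβ line WT mice were at 15.42 to 15.67, and ChREBPβ KO mice were at 15.43, 15.57, 15.63, 15.66 and 15.67. The difference was 0.04 (95% interval -0.15 to 0.23).

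Rxra, which encodes the DNA-binding partner of PPARγ, followed the same direction at both of its probes. The brighter probe was at 14.53 to 14.91 with a median of 14.71 in WT of the total line and at 15.17 to 15.53 with a median of 15.32 in total ChREBP-KO, without overlap. The log2 difference was 0.64 (SE 0.07, adjusted p = 6.84e-08), a 1.56-fold higher level, and that of the other probe was 0.61. WT mice of the ChREBPβ line were at 15.07 to 15.30, and ChREBPβ KO mice at 14.93, 15.14, 15.15, 15.15 and 15.19. The lowest ChREBPβ KO mouse lay outside the WT range, and the difference was -0.04 (95% interval -0.20 to 0.11).

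Zfp423, a zinc finger factor of committed preadipocytes, had the second largest difference. It was at 9.06 to 9.69 with a median of 9.48 in WT of the total line and at 10.59 to 10.90 with a median of 10.71 in total ChREBP-KO. The groups did not overlap, and the log2 difference was 1.31 (SE 0.10, adjusted p = 2.14e-10), a 2.47-fold higher level. Its other probe gave 1.43. In the ChREBPβ line WT mice were at 10.17 to 10.66 with a median of 10.40, and the KO mice were at 10.40, 10.75, 10.93, 11.01 and 11.04. Of these, 4 of 5 were above every WT mouse. The log2 difference of 0.40 (SE 0.11) had an unadjusted p of 0.00123 and an adjusted p of 0.28, so it did not pass. Without replicate 4 of ChREBPβ KO, the lowest of the 5, it was 0.51 with a limma adjusted p of 0.041. That was the only 1 of 26 fits leaving out a mouse in which it passed. Leaving out this mouse also raised the calls over all probes in ChREBPβ KO from 15 to 86. Its skeletal muscle score, 12.95, was the highest of its group. So were its scores of macrophage (13.42), progenitor (12.51) and epithelial (7.22) markers. Its adipocyte (15.82) and endothelial (10.97) scores were the lowest of the group. The part of these tissues in the Zfp423 values was not tested.

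Of the EBF factors, which open chromatin at adipocyte genes, Ebf2 was higher in total ChREBP-KO, and the result for Ebf1 depended on the probe. Ebf2 was at 9.99 to 10.39 with a median of 10.30 in WT of the total line and at 10.35 to 10.75 with a median of 10.60 in total ChREBP-KO. The groups met at their edges, and the log2 difference was 0.36 (SE 0.09, adjusted p = 0.00265). In ChREBPβ KO the Ebf2 difference was -0.05 (95% interval -0.26 to 0.17). The 3 probes of Ebf1, a gene also known for its role in B cells, disagreed. The brightest gave a log2 difference of -0.09 (adjusted p = 0.37) in total ChREBP-KO, another 0.14 (adjusted p = 0.19) and the third 0.29 (adjusted p = 0.00369). In ChREBPβ KO the same probes gave 0.09, 0.18 and 0.06, and none passed.

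The early C/EBP factors were lower in total ChREBP-KO. Cebpb was at 14.56 to 14.88 with a median of 14.74 in WT of the total line and at 14.16 to 14.61 with a median of 14.30 in total ChREBP-KO. Only the upper edge of the KO range reached the WT mice. This gave a log2 difference of -0.36 (SE 0.12, adjusted p = 0.0161). In the ChREBPβ line it was -0.33 (SE 0.13, unadjusted p = 0.0188, adjusted p = 0.53), with KO mice at 13.57, 13.80, 13.86, 14.23 and 14.29 and WT mice at 13.92 to 14.79. The Cebpb difference in the total line lost its call in 7 alternatives, among them every recomputation from scanner intensities. It was between -0.24 and -0.21 in the 3 that used quantile normalization. With the processed signal scaled to the 75th percentile it was -0.31 (limma adjusted p = 0.0726). Cebpd was at 12.24 to 13.39 in WT of the total line and at 12.06 to 12.46 in total ChREBP-KO, so that the WT mice were spread widely and the KO mice narrowly. Its log2 difference was -0.47 (SE 0.18, adjusted p = 0.0385), and the call was lost without replicate 5, 7 or 8 of WT or replicate 1, 2, 4 or 5 of total ChREBP-KO, left out singly, with values between -0.47 and -0.36. The macrophage score of 9 genes averaged 12.04 in WT of the total line and 11.48 in total ChREBP-KO. Deviations of Cebpd from its group means had a Pearson r of 0.89 with those of this score over the 26 arrays, where both values come from the same array, and the part of macrophages in the Cebpd difference was not tested.

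Klf4, an early factor and an immediate responder to stimulation, did not pass in either KO. It was at 12.96 to 13.71 with a median of 13.54 in WT of the total line and at 13.00 to 13.65 with a median of 13.39 in total ChREBP-KO. Their log2 difference was -0.09 (95% interval -0.49 to 0.31, adjusted p = 0.734). In the ChREBPβ line WT mice were at 13.54 to 14.66 and KO mice at 13.42, 13.46, 13.54, 14.33 and 14.51. The difference there was -0.11 (95% interval -0.54 to 0.33).

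**Figure D2:**
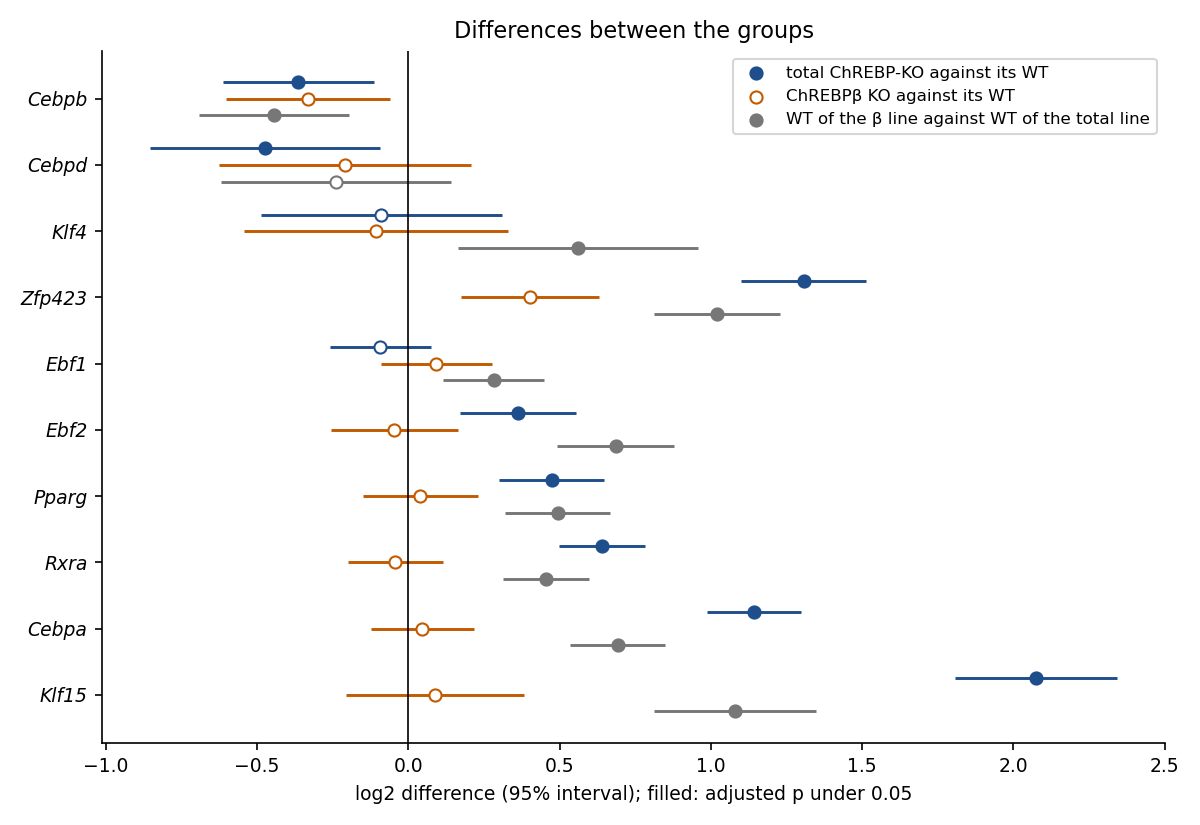
log2 difference of each member at its brightest probe (x axis) in 3 comparisons, with the 95% interval as a line. Filled points passed an adjusted p of 0.05 in limma and open points did not. All ChREBPβ KO points are open, and the differences between both groups of WT mice lie near those of total ChREBP-KO for Pparg and Cebpb.

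The effects of both KO were then compared directly, by the interaction term of the same fit. The ChREBPβ effect was lower than the total effect in 6 members, beside 23.2% of all genes called in either direction and 13.0% called lower. The difference of effects was -1.99 for Klf15 (SE 0.19, adjusted p = 8.21e-08), -1.10 for Cebpa (SE 0.11, adjusted p = 2.11e-07) and -0.91 for Zfp423 (SE 0.15, adjusted p = 0.00013). It was -0.68 for Rxra (adjusted p = 4.76e-05), -0.43 for Pparg (adjusted p = 0.0145) and -0.41 for Ebf2 (adjusted p = 0.0357). The Ebf2 call was lost in 11 of 26 fits that left out 1 mouse, mice of all 4 groups among them, and the value ranged from -0.48 to -0.35 over the 26 fits. With the lymphocyte score in the fit as a covariate 4 of these 6 calls were left, and Pparg was at -0.28 (adjusted p = 0.312) and Ebf2 at -0.27 (adjusted p = 0.406). Over all 40168 probes the calls of this term fell from 9049 to 2423. With the muscle score added, Pparg was at -0.26 (adjusted p = 0.394) and Ebf2 at -0.23 (adjusted p = 0.514). The median over both Pparg probes gave -0.31 (adjusted p = 0.134). For Cebpb, whose point estimates were alike in both KO, it was 0.03 (95% interval -0.34 to 0.40).

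Both groups of WT mice also differed from each other at these genes, although neither carried a targeted allele. In WT mice of the ChREBPβ line 8 members were higher and 1 was lower than in WT mice of the total line, beside 45.8% of all genes, of which 26.1% were higher and 19.7% lower. It was a log2 difference of 1.08 for Klf15 (SE 0.13, adjusted p = 3.6e-07), 1.02 for Zfp423 (SE 0.10, adjusted p = 3.03e-08), 0.69 for Cebpa and 0.69 for Ebf2. Pparg, Rxra, Klf4 and Ebf1 were higher by 0.49, 0.46, 0.56 and 0.28, and Cebpb was lower, with a log2 difference of -0.45. The second probes of Pparg and Rxra did not pass, at 0.03 (limma adjusted p = 0.90) and 0.23 (adjusted p = 0.125). Without replicate 1 or 7 of WT of the ChREBPβ line the Klf4 difference was 0.44 or 0.47 and did not pass (adjusted p = 0.0577 and 0.052). Cebpd did not pass (-0.24, adjusted p = 0.305). The mouse line, its WT group and its lymphocyte score change together in this comparison and cannot be told apart. Because total ChREBP-KO and WT of the ChREBPβ line are each set against the same WT mice of the total line, the values of these comparisons are given side by side only.

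The order of the 4 groups therefore differed between members. For Klf15 and Cebpa, WT of the total line was lowest and total ChREBP-KO highest, with both groups of the ChREBPβ line between them and not separable from each other. Total ChREBP-KO was above WT of the ChREBPβ line by 0.99 for Klf15 (adjusted p = 2.87e-06) and by 0.45 for Cebpa (adjusted p = 7.19e-05), with no overlap in either gene. At its brighter probe Rxra had the same order with a smaller step of 0.18 (adjusted p = 0.0463). For Pparg at its main probe, WT of the total line was lowest, and the other 3 groups did not separate, the step from WT of the ChREBPβ line to total ChREBP-KO being -0.02 (95% interval -0.19 to 0.15). At the second Pparg probe this step was 0.29 and the difference between both groups of WT mice 0.03, and neither passed. For Zfp423, total ChREBP-KO was above WT of the ChREBPβ line by 0.29 (adjusted p = 0.0325), and ChREBPβ KO was not separable from total ChREBP-KO. Ebf1, Ebf2 and Klf4 ran the other way, with total ChREBP-KO below WT of the ChREBPβ line by log2 differences of -0.37, -0.32 and -0.65. Against this second WT group 7 members passed, 4 higher and 3 lower, beside 31.5% of all genes, of which 16% were higher and 15.5% lower. The mean lymphocyte score was 9.70 in total ChREBP-KO and 7.67 in WT of the ChREBPβ line, and its part in these differences was not tested.

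The lymphocyte score was next entered in the fit as a covariate, a choice made after seeing the data, and 4 of the 8 calls in total ChREBP-KO were lost. Over all 40168 probes the calls in this comparison fell from 18265 to 5930. Klf15, Cebpa, Zfp423 and Rxra still passed, with log2 differences of 2.08, 1.11, 1.09 and 0.46 and adjusted p values from limma of 1.9e-08, 7.65e-08, 1.7e-06 and 0.000421. Pparg fell short at 0.33 (adjusted p = 0.0524) and Ebf2 at 0.24 (adjusted p = 0.246). Cebpb was at -0.41 (adjusted p = 0.114) and Cebpd at -0.25 (adjusted p = 0.574). In the comparison of both groups of WT mice, where the lymphocyte scores did not overlap, only Klf15 and Cebpa still passed with the lymphocyte and muscle scores in the fit, at 1.08 (adjusted p = 0.045) and 0.63 (adjusted p = 0.0428). Over all 40168 probes the calls between these WT groups fell from 18215 to 1211 with both scores.

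**Figure D3:**
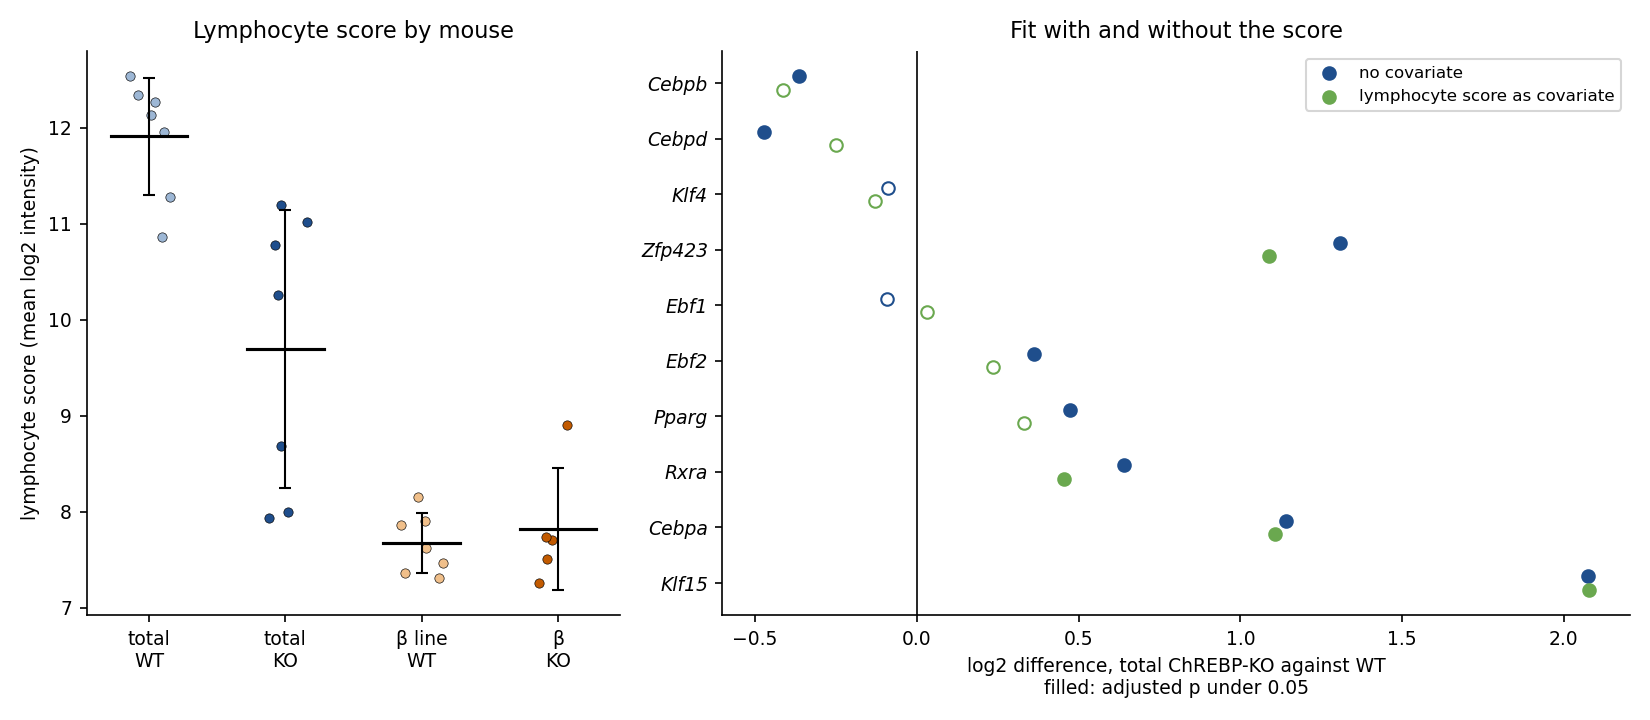
Left, lymphocyte score of each mouse (y axis, mean log2 intensity of 15 markers) by group, with mean and SD. Right, log2 difference of each member between total ChREBP-KO and WT (x axis) without and with this score in the fit, filled where the adjusted p was under 0.05. Klf15 and Cebpa keep nearly the same value, and Pparg, Ebf2, Cebpb and Cebpd change from filled to open.

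Genes listed as targets of PPARγ and C/EBPα were mostly higher in total ChREBP-KO. Of 22 target genes, 15 were higher and 3 lower, beside 25.7% of all genes higher and 20.2% lower, and their median log2 difference was 0.52, against 0.05 over all genes. All 8 adipocyte markers scored above are also among these 22 targets, so both results rest partly on the same genes. Lymphocyte markers were lower in the same mice. The part of either cell type in the values of the targets was not tested. Pck1, the enzyme of glyceroneogenesis, was higher by 2.73 (SE 0.17, adjusted p = 6.44e-12), Lpl, the lipase that frees fatty acids from circulating triglycerides, by 1.54 (SE 0.08, adjusted p = 2.65e-13), and Adrb3, the β3-adrenergic receptor, by 1.53 (SE 0.12, adjusted p = 4.33e-10). The 3 targets that were lower were Slc2a4, the insulin-responsive glucose transporter (-0.87, adjusted p = 1.75e-09), Gpd1, which makes glycerol 3-phosphate (-0.69, adjusted p = 9.8e-09), and Angptl4, an inhibitor of lipoprotein lipase (-0.44, adjusted p = 0.0271). In ChREBPβ KO 0 of the 22 passed in limma, beside 0.0497% of all genes. Slc2a4 came closest with -0.41 (adjusted p = 0.0622), and Pck1 was at 0.76 (adjusted p = 0.22). The difference between both KO effects passed for Pck1 at -1.96 (adjusted p = 7.8e-06), for Lpl at -1.33 (adjusted p = 3.68e-08) and for Slc2a4 at 0.46 (adjusted p = 0.00499).

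Other regulators of adipogenesis were called about as often as genes at large. Of 79 tested, 25 were higher and 10 lower in total ChREBP-KO, which is 44.3% beside 45.9% of all genes. Of these 79, 0 passed in ChREBPβ KO, beside 0.0497% of all genes. Nuclear receptors had 7 of 13 higher and 0 lower, beside 25.7% of all genes higher and 20.2% lower. Among them Ppara, the receptor that drives fatty acid oxidation, was higher by 1.03 (adjusted p = 3.94e-05), Nr1h3, the oxysterol receptor LXRα, by 0.86 (adjusted p = 1.39e-10) and Rxrg, a further RXR partner, by 0.60 (adjusted p = 1.86e-06). Of 9 other KLF genes, Klf11 and Klf9 were higher by 0.63 and 0.47, and Klf10 and Klf2 were lower, with log2 differences of -0.93 and -0.84. Of 7 other EBF and zinc finger genes, Zfp467 was higher by 1.01 (adjusted p = 9.32e-09), and Ebf3 and Ebf4 were lower, with differences of -0.53 and -0.48. The 4 other members of the C/EBP family did not pass.

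Positive regulators and coregulators were split, with 38.5% and 33.3% called in total ChREBP-KO. Of all genes 45.9% were called, 25.7% higher and 20.2% lower. Of 13 other positive regulators 4 were higher, among them the growth factor Igf1 (0.68), the nuclear factor Nfib (0.65) and the insulin receptor gene Insr (0.48), and Creb1, the cyclic AMP response factor that induces Cebpb, was lower (-0.33). Of 15 coregulators 3 were higher, namely Nrip1 (0.55), Cited2 (0.54) and Ncoa2 (0.33), and 2 were lower, namely the acetyltransferase gene Crebbp (-0.62) and Ncoa3 (-0.53). Inhibitors of adipogenesis were not lower as a group, and 61.1% of them were called. Their median log2 difference was 0.31, against 0.05 over all genes. Of 18 tested, 8 were higher, led by Twist1 (0.85), Wwtr1 (0.64) and Twist2 (0.62), and 3 were lower, namely Gata3 (-1.28), Irf4 (-0.60) and Tgfb1 (-0.51). Gata3 and Irf4 are also expressed in lymphocytes, whose markers were lower in the same mice, and the part of lymphocytes in their values was not tested.

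**Figure D4:**
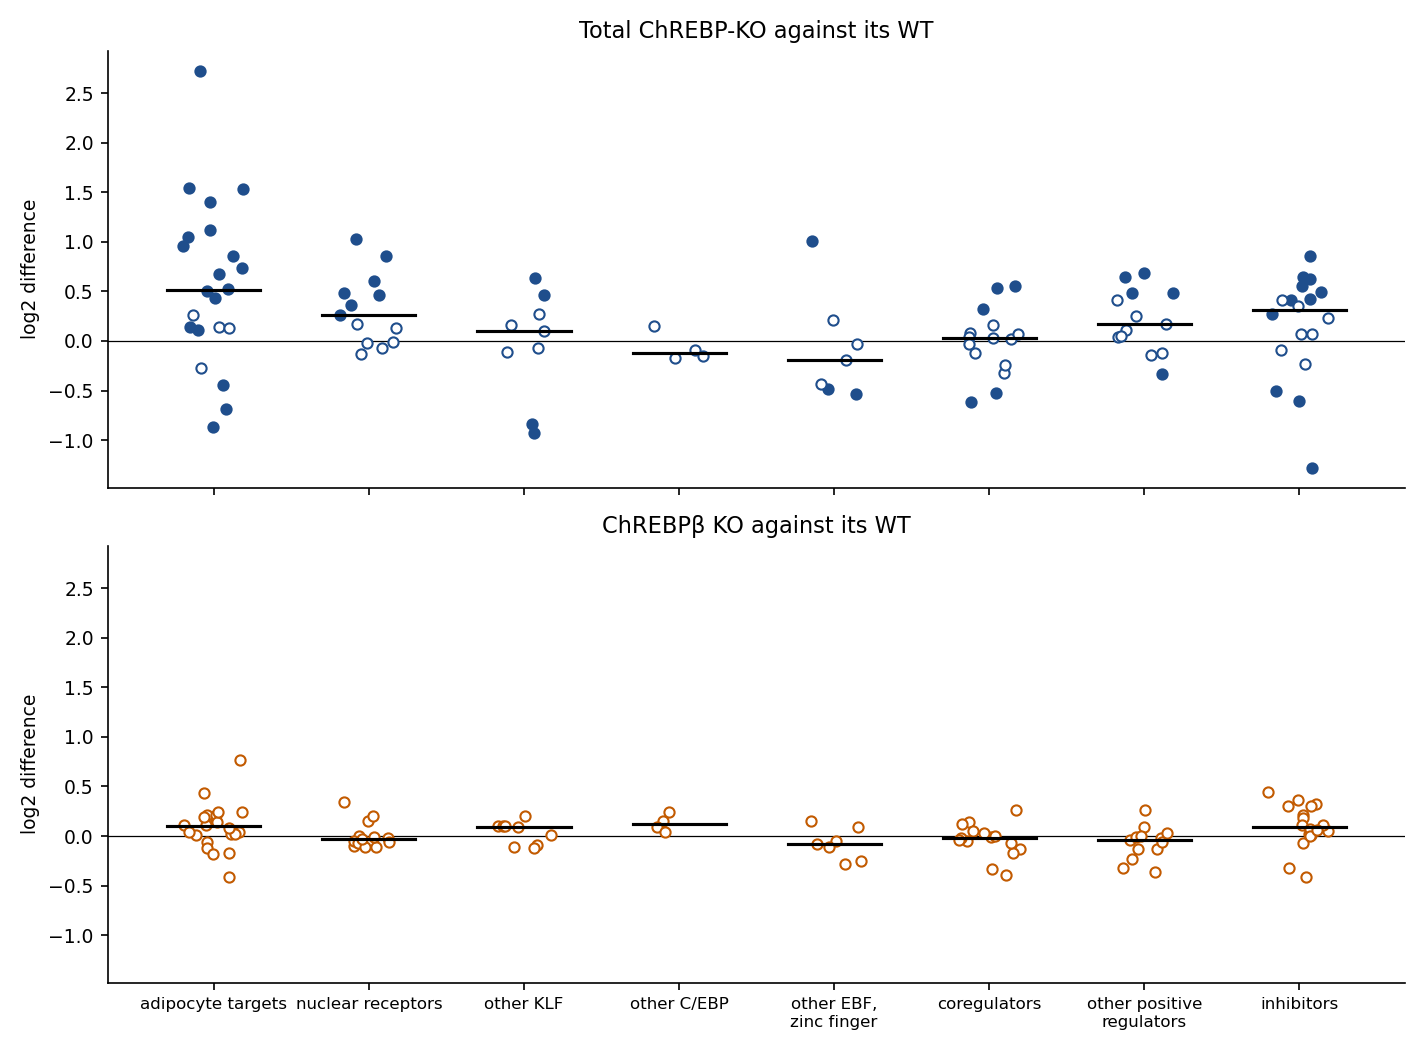
log2 difference (y axis) of each gene in the lists of targets and other regulators (x axis) in total ChREBP-KO (top) and ChREBPβ KO (bottom). Points are genes, filled where the adjusted p was under 0.05, and bars are medians. The median of the targets is 0.52 in total ChREBP-KO and 0.10 in ChREBPβ KO, where no point is filled.

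Members also varied between mice of the same group, and this variation was described by Pearson's r of deviations from the group means over the 26 arrays. The highest values were those of Pparg with Rxra (0.79), Zfp423 with Rxra (0.73) and Pparg with Zfp423 (0.70). Cebpd ran against Cebpa (-0.64) and Pparg (-0.57), and Klf4 ran with Cebpd (0.48). The adipocyte score had an r of 0.66 with Pparg, 0.68 with Zfp423 and 0.57 with Cebpa. The macrophage score had an r of -0.74 with Cebpa and -0.58 with Pparg, and the score of 10 progenitor markers had an r of 0.75 with Cebpd and 0.77 with Klf4. Over 23063 other genes, those most like Pparg were Gm26911 (0.87), Eepd1 (0.87) and Lrrc58 (0.85), and among those most like Rxra were Fgfrl1 (0.83) and Eepd1 (0.81). Klf15 was most like Nupr1 (0.78), Dido1 (0.77) and Cfap36 (0.75), and Cebpa most like Odf3b (0.84), Zfp629 (0.83) and Adgrf5 (0.82). Zfp423 was most like Itga7 (0.89), Tenm4 (0.88) and Tead1 (0.87), and Cebpd most like Ninj1 (0.90), C1qb (0.90) and C1qa (0.90), of which the C1q genes are markers of macrophages. Klf4 was most like Prdm8 (0.87), Nbl1 (0.87) and Has1 (0.85). For Ebf2 these were Ptov1 (0.83), Erbb2 (0.80) and Pik3r2 (0.78), for Ebf1 Ifngr1 (0.74), Dcps (0.73) and Pbxip1 (0.72), and for Cebpb AK158083 (0.75), 4930512M02Rik (0.71) and Gm34478 (0.70). All values of an array share its RNA sample, dissection and scaling.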

How the data were processed

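RNA from inguinal fat of 26 mice was hybridized to 1-color Agilent arrays, and groups and wash batches were taken from the labels. The authors extracted spot intensity with Agilent Feature Extraction 10.10.1.1, and per the methods kept probes above background, quantile normalized the median pixel intensity and took the median of replicated probes. Their deposited table holds log2 values of 40168 probes with 97 missing values, and it was the main input here. Each column had a Pearson r of at least 0.999 with the log2 intensities of its own scanner file and at most 0.9964 with any other, which settled the sample. This r does not depend on the base of the log. For Klf15 in total ChREBP-KO, the alternatives, those from log2 scanner intensities among them, gave differences between 1.99 and 2.18. The column medians were between 7.76 and 7.77. Median spot intensity per array was 59 to 107.5 over a background of 15 to 23, between 70.2% and 76.5% of spots were well above background, and no saturation was recorded (0 spots). The number of arrays limits the precision.

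One mean per group was fitted with lmFit and eBayes of limma 3.58.1 (R 4.3.3), with 22 residual degrees of freedom, and p-values were adjusted by Benjamini-Hochberg over all probes. The threshold was 0.05 with no fold threshold. A gene was represented by its brightest probe. Members and lists were chosen with earlier results of these data known. Named genes were the members, Mlxipl, up to 3 largest called rises and falls of each list in total ChREBP-KO, and the 3 genes most like each member, of which 1 is not reported here. Marker lists of endothelium and epithelium were also scored. In total ChREBP-KO 4 of 7 endothelial genes were higher, beside 25.7% of all genes. Of the 6 epithelial genes 0 passed, beside 45.9% of all genes. The labels do not state whether mice of a group shared litters. Probe positions in the scanner files are for mm9 and were not used with the GRCm38.p6 promoters. The fit was tested on simulated data. Alternatives changed the normalization, background, filter, batch terms, weights, covariates and mice, and the inhibitor Tcf21 was not analysed here. Figures were drawn with matplotlib 3.10.9.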

Additional observations from a re-analysis of the deposited data

Results flagged for a closer look

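The effect of ChREBPβ KO differed from that of total ChREBP-KO by the interaction term in 6 members, with differences of -0.43 for Pparg, -1.10 for Cebpa, -0.41 for Ebf2, -1.99 for Klf15, -0.91 for Zfp423 and -0.68 for Rxra on the log2 scale. With the lymphocyte score as a covariate 4 of the 6 passed, and Pparg (-0.28, limma adjusted p = 0.312) and Ebf2 (-0.27, adjusted p = 0.406) did not. Over all 40168 probes 9049 passed without the score and 2423 with it. Each line was compared with its own WT mice, and the lymphocyte score differed between these WT groups. In Rxra, replicate 4 of ChREBPβ KO was far below the other 4 mice of its group, at 14.93 against 15.14 for the nearest, a gap of 0.79 of the range of the group. This was 1 of 40 groups examined for such a mouse, and chance alone marks about 1 in 20.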

How the results depend on the processing

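The calls of Klf15, Cebpa, Zfp423 and Rxra in total ChREBP-KO held under every alternative and with any single mouse left out. The count of members called there was 8, and 7 to 8 without single mice. Both the lymphocyte and the muscle score as covariates left 4, and it was 4 with the lymphocyte score alone, 5 with slide as a fixed block, which left 8 residual degrees of freedom, and 7 with the replicate number as a block. Of the other regulators 35 were called, 19 with both scores, 20 with the lymphocyte score and 18 with slide as a fixed block, and 33 to 41 without single mice. In ChREBPβ KO 0 members were called, and 0 to 1 without single mice. Of the targets, 0 were called in ChREBPβ KO, 2 with array weights, 1 with the lymphocyte score and 0 to 1 without single mice. Over all probes 15 were called in ChREBPβ KO, 60 with array weights and 23 with the lymphocyte score. For the difference of both KO effects 6 members were called, 4 with both scores, 4 with the lymphocyte score, 2 with slide as a fixed block and 5 to 6 without single mice. Over all probes 9049 were called, 2291 with both scores, 2423 with the lymphocyte score and 627 with slide as a fixed block. Between both groups of WT mice 9 members were called, 2 with both scores, 2 with the lymphocyte score and 8 to 9 without single mice. Over all probes 18215 were called, 1211 with both scores and 1413 with the lymphocyte score. The muscle score and the lymphocyte score alone were added after seeing the data. The labels do not say whether replicate numbers pair the mice, and the main fit did not treat them as pairs. Same-numbered pairs of KO and WT had correlations of deviations between -0.36 and 0.51, with 4 of 10 pairs over 0.1. These values cannot decide it, since tissue carried along in dissection also enters them. The replicate block cost Cebpd its call (-0.42, limma adjusted p = 0.0746). Directions turned only for uncalled values. In total ChREBP-KO, Ebf1 became 0.027 with both scores, 0.032 with the lymphocyte score and 0.10 with the median over probes, and Klf4 became 0.019 with the processed signal and 0.19 with slide as a fixed block. In ChREBPβ KO, Pparg became -0.031 with the processed signal. The difference of effects of Cebpb became -0.10 with scanner median intensities, -0.050 with the processed signal, -0.12 with normexp, -0.10 with no filter and -0.035 with the replicate block, and that of Klf4 0.13 with both scores, 0.027 with the lymphocyte score and 0.11 with the muscle score. Between WT mice, Cebpd became 0.16 with both scores and 0.19 with the lymphocyte score. Without single mice, the ChREBPβ difference ranged from -0.018 to 0.11 for Cebpa, -0.11 to 0.013 for Ebf2, -0.020 to 0.16 for Klf15, -0.27 to 0.0097 for Klf4, -0.064 to 0.0029 for Rxra and 0.35 to 0.51 for Zfp423. The difference of effects ranged from -0.054 to 0.13 for Cebpb and -0.18 to 0.10 for Klf4, and the total difference of Cebpd from -0.56 to -0.36. The cause of these changes was not tested. Small differences in ChREBPβ KO are limited by its 5 mice.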

Other observations

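Of 10 markers of adipocyte progenitors, from which new adipocytes arise, 1 was higher and 2 were lower in total ChREBP-KO, beside 25.7% and 20.2% of all genes, and their median log2 difference was -0.0053. Cd55, a complement regulator found on interstitial progenitors, was higher by 0.85 (limma adjusted p = 9.62e-08). Icam1, an adhesion molecule of committed preadipocytes that lymphocytes and endothelium also express, was lower (-1.04, adjusted p = 0.000108), and so was F3, the tissue factor gene (-0.84, adjusted p = 2.42e-05). In ChREBPβ KO 0 of the 10 passed, beside 0.0497% of all genes, and their median was -0.17.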
